A study of Mus musculus with 12 samples.

Results

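Matrix metalloproteinases are zinc-dependent proteases that cut proteins of the extracellular matrix, and tissue inhibitors of metalloproteinases (TIMPs) bind their active sites. The members described here are 10 genes chosen by name, Mmp2, Mmp3, Mmp9, Mmp10, Mmp13, Mmp14, Mmp19, Timp1, Timp2 and Timp3, out of 47517 gene symbols in the deposited table. All 10 were listed, and 9 passed the filter on low counts and were tested among 17609 genes. Mmp9 did not pass it. The 10 genes were chosen with earlier results of these data known.

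RNA was measured after ribosomal RNA depletion in 12 libraries of C57BL/6 mouse embryonic fibroblasts, taken from embryos at E13.5 and immortalised with SV40 large T antigen, a viral protein that binds p53 and RB. All cells, controls included, carry floxed Ssb1 (gene symbol Nabp2) and Ssb2 (Nabp1). The genotype labels read Ssb1 Fl/Fl; Ssb2 Fl/Fl for Cre-negative cells and, in that spelling, Ssb1 Fl/F; Ssb2 Fl/Fl for Cre-positive cells, in which Rosa-CreERT2 codes for a Cre recombinase that 4-hydroxytamoxifen (4-OHT) activates. The treatment protocol writes both genes as Flox/Flox in either line. Cells of each genotype were untreated, given ethanol as the vehicle, or given 4-OHT, the last 2 for 5 days, which makes 6 groups of 2 libraries. Nothing in the labels ties the libraries of a group to different cultures, nor says how many embryos gave each line. P-values therefore reflect how far these particular libraries vary, possibly for technical reasons only, and line and Cre cannot be told apart.

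Most metalloproteinases are secreted as inactive precursors whose propeptide blocks the zinc site until it is cut off. Several of them sit in a gene cluster and are induced in fibroblasts by cytokines, growth factors and stress through the transcription factor AP-1, made of Fos and Jun proteins. Mmp14 is held in the cell membrane, and with Timp2 as a bridge it activates the Mmp2 precursor at the cell surface.

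The promoters of the 3 members in the gene cluster are shown because they hold a pair of motifs in common, and that of Timp1 as a member without them. RefSeq windows of 250 bases upstream of the start (GRCm38.p6) were found for 7 of the 10 members: Mmp3, Mmp10, Mmp13, Mmp14, Timp1, Timp2 and Timp3. Capitals mark each match to the AP-1 motif TGANTCA, which reads alike on both strands, and to the TATA motif TATAAA, searched on the strand of the gene. The motifs share no bases in these windows.
Mmp13, chr9:7272264-7272513, plus strand: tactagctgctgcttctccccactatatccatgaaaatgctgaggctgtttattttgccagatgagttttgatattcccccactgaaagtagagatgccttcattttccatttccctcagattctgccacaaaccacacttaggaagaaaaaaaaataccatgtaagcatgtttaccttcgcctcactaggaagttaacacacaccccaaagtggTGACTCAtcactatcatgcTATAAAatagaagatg
Mmp3, chr9:7445572-7445821, plus strand: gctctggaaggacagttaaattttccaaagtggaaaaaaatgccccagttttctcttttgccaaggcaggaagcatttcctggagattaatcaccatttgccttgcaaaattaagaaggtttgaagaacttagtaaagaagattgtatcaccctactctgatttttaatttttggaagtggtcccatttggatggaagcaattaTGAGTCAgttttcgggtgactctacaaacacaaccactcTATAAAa
Mmp10, chr9:7502092-7502341, plus strand: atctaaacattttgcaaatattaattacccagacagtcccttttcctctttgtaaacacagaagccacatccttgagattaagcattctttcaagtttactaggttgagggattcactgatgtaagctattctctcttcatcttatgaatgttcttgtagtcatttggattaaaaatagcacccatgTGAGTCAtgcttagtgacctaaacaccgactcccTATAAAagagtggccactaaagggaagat
Timp1, chrX:20869916-20870165, plus strand: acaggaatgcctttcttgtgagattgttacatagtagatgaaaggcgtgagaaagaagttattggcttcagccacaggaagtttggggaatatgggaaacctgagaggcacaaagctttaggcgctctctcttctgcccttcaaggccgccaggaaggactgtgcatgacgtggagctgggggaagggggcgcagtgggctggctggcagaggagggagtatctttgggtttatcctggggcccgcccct
Mmp13, Mmp3 and Mmp10 each held both motifs, and the other 4 windows, that of Timp1 among them, held neither. The AP-1 match began 35 bases upstream of the RefSeq start in Mmp13, 46 in Mmp3 and 63 in Mmp10, with the TATA match between it and the start, at 16, 7 and 29 bases. Of 32851 RefSeq windows of this length, 6.75% held the AP-1 motif, 7.59% the TATA motif and 0.791% both. A match describes the letters of the window and is no evidence of binding.

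Library totals ran from 20201855 to 36367012 counts. With 4-OHT in Cre-positive cells, Nabp1 was at 3.40 and 3.96 CPM (counts scaled to a common library total, with totals adjusted by trimmed means of M values) and Nabp2 at 4.84 and 5.09 CPM, and the other 10 libraries ranged from 14.5 to 31.2 CPM for either gene. Of 10 fibroblast markers 7 reached 1 CPM in at least 1 group. The summed level of these markers was 5050 to 5710 CPM in Cre-negative and 6480 to 6980 CPM in Cre-positive libraries, with Vim leading, while Thy1, Dcn and Lum stayed under 1 CPM in every group. Macrophage and other haematopoietic markers, cells that make Mmp9 and Mmp12, summed to 7.91 to 12.7 CPM over all libraries, 2 of 10 reached 1 CPM, and S100a9 and Tyrobp were at 0 counts. Mitochondrial genes held 1.83% and 1.92% of counts in the Cre-positive 4-OHT libraries and 1.49% and 1.74% in the ethanol libraries of that line, and the part of this in the results was not tested. In bulk RNA, fewer cells of a type and less RNA per cell cannot be told apart.

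What follows induced loss of both genes is addressed in the Cre-positive line by setting 4-OHT beside its vehicle. All cells with Cre carry both floxed genes. Activation of Cre and loss of the genes therefore cannot be told apart, here or in the difference between the lines. Of the 9 tested members 7 rose and 0 fell (adjusted p under 0.05, edgeR quasi-likelihood test), where 38.3% of all tested genes were called, 21.1% higher and 17.2% lower. The collagenase gene Mmp13 and the stromelysin gene Mmp3 more than doubled, Mmp2 and Mmp19 rose by about 1.5 times, and Timp1 and Timp3 rose by less. The membrane protease gene Mmp14 did not pass the test. The median log2 fold change of the tested members was 0.55, against 0.03 over all genes tested. Since the members were chosen with earlier results known, this count and median may in part reflect that choice.

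**Figure D1:**
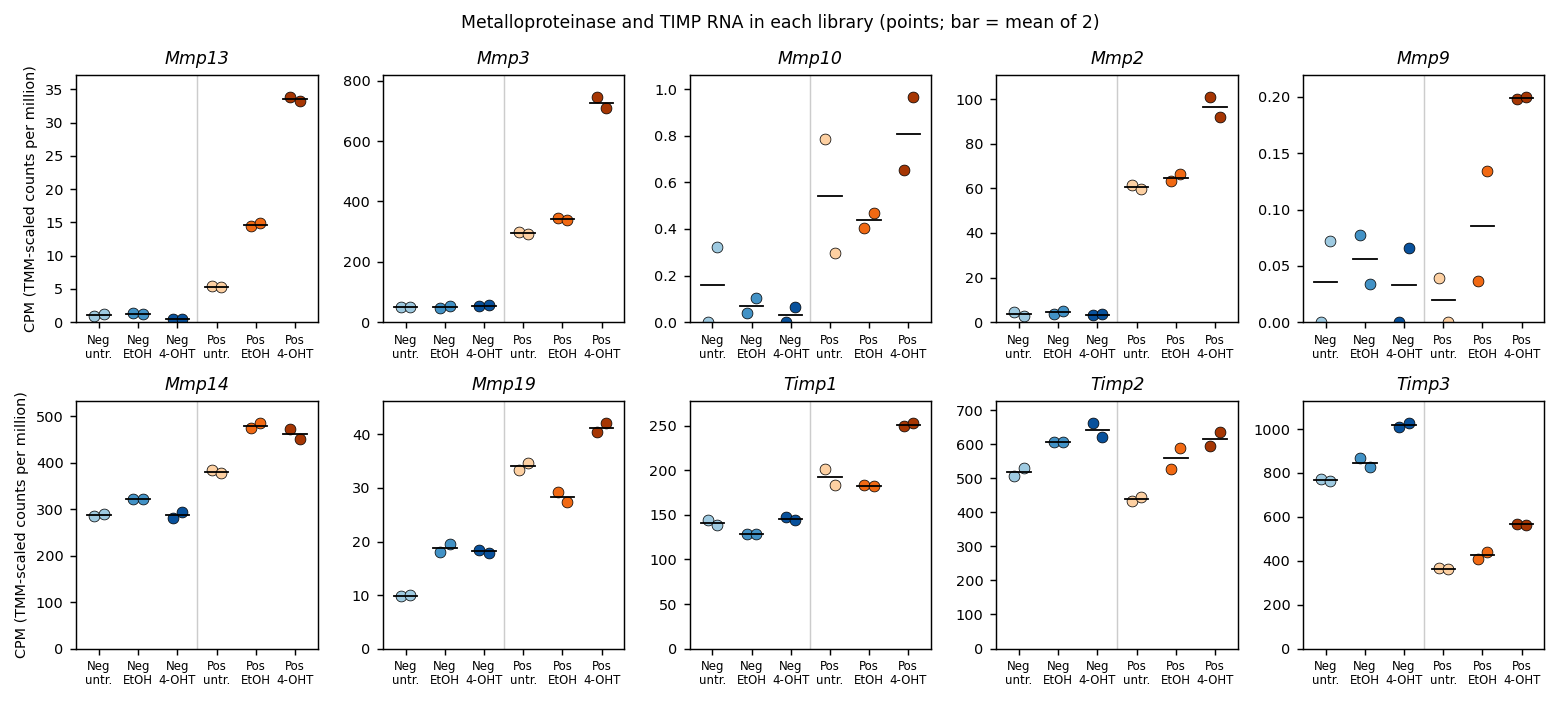
RNA level of each of the 10 genes in CPM, with 1 point per library, a bar at the mean of the 2 libraries of a group, and groups ordered as Cre-negative then Cre-positive cells untreated, with ethanol and with 4-OHT. Mmp13, Mmp3 and Mmp2 are low in all 6 Cre-negative libraries and highest in the 2 Cre-positive 4-OHT libraries, while Timp3 is higher in every Cre-negative library than in any Cre-positive one.

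Mmp13 codes for collagenase 3, which cuts fibrillar collagens (chromosome 9, 7272514 to 7283331, GRCm38, GENCODE M21). It was at 33.8 and 33.2 CPM in Cre-positive cells with 4-OHT, 14.4 and 14.9 CPM with ethanol and 5.39 and 5.31 CPM untreated. The 3 Cre-positive groups were ordered untreated, ethanol, 4-OHT without overlap. The change from ethanol to 4-OHT was 2.28-fold (log2 1.19, SE 0.072, adjusted p = 1.08e-10), and the log2 value was 1.92 when both control groups served as 1 reference. From ethanol to 4-OHT in Cre-positive cells, cartilage and bone markers, of cells that make Mmp13, moved the same way. The sum of the 9 markers was 44.7 to 47.7 CPM with ethanol and 64.9 to 69.4 CPM with 4-OHT. Of them 3 reached 1 CPM in at least 1 group, and Ibsp and Matn1 were at 0 counts. Of 5 tested markers 3 were called higher and 0 lower, beside 21.1% higher and 17.2% lower over all tested genes. Sox9 was at 7.15 and 9.39 CPM with ethanol and 11.24 and 12.75 CPM with 4-OHT. The means of Acan (0.070 to 0.047 CPM) and Sp7 (0.054 to 0.031 CPM) were lower with 4-OHT. They lie under the level that an observed 0 still allows (0.0825 to 0.149 CPM by library), so they give no direction. The part of these markers in the result was not tested. Most of that sum was Col10a1, a collagen gene of growth plate cartilage, at 37.3 CPM with ethanol and 54.0 CPM with 4-OHT (means of 2 libraries), and Col10a1 rose (log2 0.53, adjusted p = 8.03e-07). In Cre-negative cells Col10a1 fell with 4-OHT (log2 -0.45, adjusted p = 0.000283), as Mmp13 did. With ethanol in that line Col10a1 was at 40.56 CPM against 23.15 CPM untreated (means), while Mmp13 did not pass (log2 0.23, adjusted p = 0.573). Untreated Cre-positive cells had 24.56 CPM of Col10a1, where Mmp13 was 4.91-fold higher than in untreated Cre-negative cells. The sum of the 9 markers was 52.8 to 63.6 CPM in Cre-negative libraries and 31.6 to 37.3 CPM in untreated Cre-positive ones.

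Mmp3 codes for stromelysin 1, which cuts proteoglycans, laminin and fibronectin and activates other metalloproteinase precursors (chromosome 9, 7445822 to 7455975). Its level was 745.5 and 708.1 CPM with 4-OHT, 345.7 and 339.7 CPM with ethanol and 298.4 and 292.2 CPM untreated in Cre-positive cells. All 3 groups were separate, and the step from ethanol to 4-OHT was 2.12-fold (log2 1.09, SE 0.0428, adjusted p = 1.26e-13).

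Mmp10, for stromelysin 2 (chromosome 9, 7502352 to 7510240), is a close relative of Mmp3 with few counts. The Cre-positive libraries held 23 and 29 counts with 4-OHT (0.651 and 0.966 CPM), 11 and 14 with ethanol (0.405 and 0.469 CPM) and 20 and 6 untreated (0.787 and 0.295 CPM). The ethanol and 4-OHT libraries did not overlap, but the difference did not pass the test (log2 0.86, 95% interval -0.16 to 1.88, adjusted p = 0.178), and the untreated libraries spanned most of that range. Of the 30-base stretches in Mmp10 transcripts 12.2% also occur in Mmp3 transcripts, so reads can be shared and the Mmp10 counts are uncertain.

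The gelatinase genes differed in level. Mmp2 codes for gelatinase A, which cuts denatured collagen and type IV collagen (chromosome 8, 92827291 to 92853420). It was at 100.9 and 92.1 CPM with 4-OHT, 63.1 and 66.3 CPM with ethanol and 61.6 and 59.7 CPM untreated in Cre-positive cells, and rose 1.49-fold against ethanol (log2 0.58, SE 0.0703, adjusted p = 1.65e-06). Mmp9, for gelatinase B (chromosome 2, 164940780 to 164955850), held 7 and 6 counts in the Cre-positive 4-OHT libraries and 0 to 4 counts in each of the other 10. An observed 0 still allows 3 counts, or 0.0825 to 0.149 CPM by library (counting error only). Tested without the filter, Mmp9 was at log2 1.14 for 4-OHT against ethanol (adjusted p = 0.556).

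Mmp14 codes for the membrane protease MT1-MMP (chromosome 14, 54431612 to 54445364). It was at 472.9 and 450.3 CPM with 4-OHT and 474.6 and 484.9 CPM with ethanol, both above the 383.6 and 377.7 CPM of untreated Cre-positive cells. The 4-OHT and ethanol groups lay close together and their difference did not pass the test (log2 -0.06, 95% interval -0.13 to 0.02, adjusted p = 0.251), but against both control groups taken as 1 reference Mmp14 was higher (log2 0.11, adjusted p = 0.00716). Mmp19, a secreted protease that cuts basement membrane proteins (chromosome 10, 128790910 to 128800824), was at 40.5 and 42.1 CPM with 4-OHT, 29.2 and 27.3 CPM with ethanol and 33.3 and 34.8 CPM untreated. It rose 1.46-fold against ethanol (log2 0.55, SE 0.0604, adjusted p = 4.54e-07) and 1.21-fold against untreated cells (log2 0.28, SE 0.0608, adjusted p = 0.00091), since its ethanol libraries lay below its untreated ones.

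The inhibitor genes rose by smaller amounts. Timp1, a secreted inhibitor that also binds the Mmp9 precursor (chromosome X, 20870166 to 20874735), was at 249.6 and 252.9 CPM with 4-OHT, 183.4 and 182.7 CPM with ethanol and 201.2 and 184.2 CPM untreated, with the 4-OHT libraries apart from both controls (log2 0.46 against ethanol, SE 0.0406, adjusted p = 2.62e-08). Timp3, which is held in the matrix and also inhibits ADAM proteases (chromosome 10, 86300372 to 86349506), was at 569.4 and 561.1 CPM with 4-OHT, 407.4 and 440.5 CPM with ethanol and 365.0 and 364.0 CPM untreated (log2 0.41 against ethanol, SE 0.0393, adjusted p = 5.85e-08). Timp2 (chromosome 11, 118301069 to 118355740) was at 595.8 and 635.0 CPM with 4-OHT against 528.1 and 590.1 CPM with ethanol (log2 0.14, SE 0.0476, adjusted p = 0.0263). The Timp2 groups did not overlap, but the call was lost without ethanol library 3 (log2 0.04, adjusted p = 0.62), without 4-OHT library 12 (log2 0.09, adjusted p = 0.247), with only the 4 compared libraries (adjusted p = 0.115) and with DESeq2 (adjusted p = 0.0506). Timp1 lies within the span of Syn1 and Timp3 within Syn3, on the opposite strand. Over the 12 libraries Syn1 was at 0.133 to 0.737 CPM and Syn3 at 1.07 to 2.03 CPM, far below both inhibitors. Timp2 overlaps Cep295nl on the same strand, not analysed here. Mmp19 is overlapped on the opposite strand by Tmem198b and Gm47093, the latter not analysed here. Tmem198b was at 10.7 to 18.3 CPM, near the 9.78 to 19.6 CPM of Mmp19 in Cre-negative cells, and for 4-OHT against ethanol in Cre-positive cells it fell (log2 -0.22, adjusted p = 0.0417) where Mmp19 rose. The sources used here give no strand setting for the counting, and the part of shared reads in the Mmp19 values was not tested.

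The same comparison in Cre-negative cells addresses what 4-OHT does where no Cre is present. There 2 members were higher (Timp1 and Timp3) and 2 lower (Mmp13 and Mmp14), with 5.99% of all tested genes called, 3.33% higher and 2.65% lower. Mmp13 was at 0.486 and 0.561 CPM with 4-OHT and 1.36 and 1.197 CPM with ethanol, which are 11, 17, 35 and 35 counts, and at 0.969 and 1.18 CPM untreated. These Mmp13 levels lay below every Cre-positive library, and the fall was 2.39-fold (log2 -1.26, SE 0.257, adjusted p = 0.00481), but the call was lost without 4-OHT library 5 (log2 -1.18, adjusted p = 0.058). Mmp14 was at 281.9 and 293.9 CPM with 4-OHT and 322.0 CPM in both ethanol libraries (log2 -0.16, adjusted p = 0.0125), lost without library 5, 9 or 10 (adjusted p = 0.143, 0.0532 and 0.0767). Timp1 was at 147.9 and 143.9 CPM against 128.7 and 128.8 CPM (log2 0.18, adjusted p = 0.0138), a call lost without any of libraries 5, 6, 9 and 10 (adjusted p = 0.165, 0.0531, 0.103 and 0.111). With both control groups as 1 reference Mmp14 (log2 -0.08, adjusted p = 0.154) and Timp1 (log2 0.11, adjusted p = 0.0563) lost their calls, and Timp2 (log2 0.19, adjusted p = 0.00388) and Mmp19 (log2 0.41, adjusted p = 0.000204) were higher. Timp3 was at 1010 and 1026 CPM against 866.3 and 828.6 CPM (log2 0.26, SE 0.0388, adjusted p = 0.000265). Mmp3, at 53.9 and 55.5 CPM against 48.3 and 54.9 CPM, overlapped between the groups (log2 0.08, 95% interval -0.03 to 0.20, adjusted p = 0.418).

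The test of the difference between the 4-OHT effects of both lines passed for 6 of the 9 tested members, all higher in Cre-positive cells, where 28.3% of all tested genes were called, 14.5% in that direction. Mmp13 differed most, at log2 2.45 (SE 0.263, adjusted p = 8.75e-07), with opposite directions in the lines. Mmp3 differed by log2 1.00 (SE 0.0683, adjusted p = 2.8e-09) and Mmp19 by log2 0.60 (SE 0.094, adjusted p = 6.8e-05). Mmp2 differed by log2 0.95 (SE 0.193, adjusted p = 0.000861), from 3.18 and 3.60 CPM with 4-OHT against 3.61 and 5.16 CPM with ethanol in Cre-negative cells, and without ethanol library 10 it was at log2 0.64 (adjusted p = 0.0514). For Timp1 the difference was log2 0.28 (SE 0.0589, adjusted p = 0.0013). For Timp3 it was log2 0.15 (SE 0.0551, adjusted p = 0.0459), and the call was lost without any of libraries 3, 5, 6, 9, 10, 11 and 12 (adjusted p = 0.282, 0.16, 0.0963, 0.216, 0.0582, 0.13 and 0.0702). With all 12 libraries kept it was also lost with DESeq2 (adjusted p = 0.0508) and with the DESeq2 size factors (adjusted p = 0.055), and with only the compared libraries it was lost too (adjusted p = 0.0984). Mmp14 and Timp2 did not pass, with log2 differences of 0.11 (95% interval -0.00 to 0.22) and 0.06 (-0.08 to 0.20). With both control groups as 1 reference Mmp14 did pass, at log2 0.19 (adjusted p = 0.00342). The Mmp19 difference depends on the ethanol groups: with both control groups as 1 reference it was log2 -0.0019 (adjusted p = 1).

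**Figure D2:**
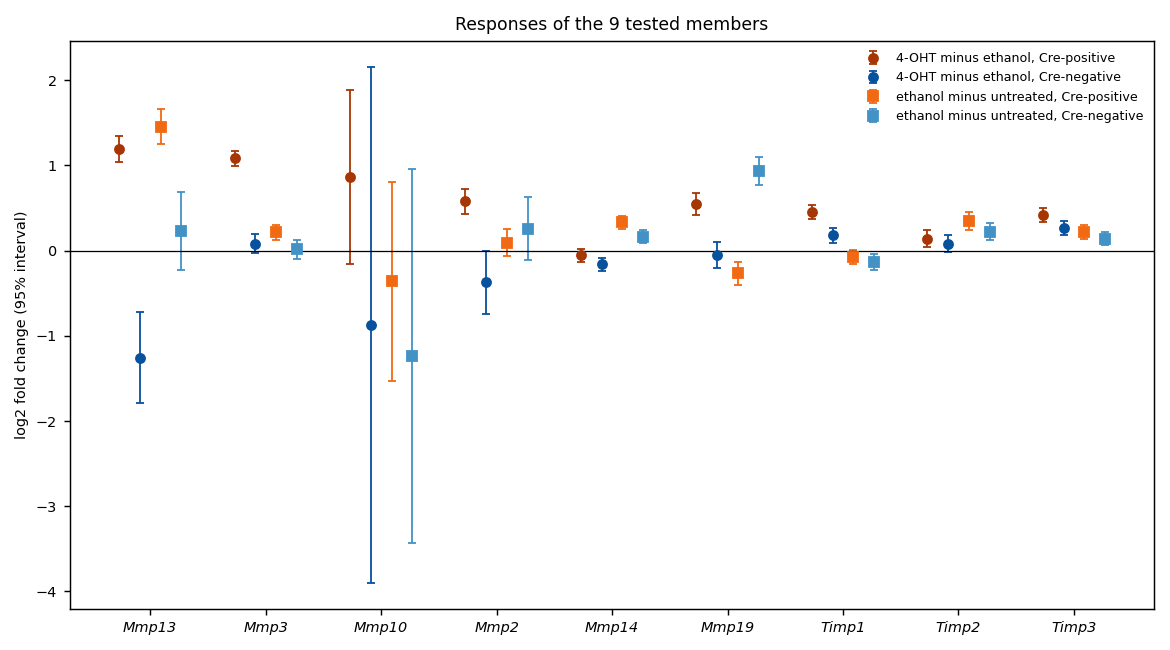
Log2 fold change of the 9 tested genes with 95% intervals, for 4-OHT minus ethanol (circles) and ethanol minus untreated (squares) in Cre-positive (brown and orange) and Cre-negative cells (blue). Mmp13 is at 1.19 and Mmp3 at 1.09 for 4-OHT in Cre-positive cells against -1.26 and 0.08 in Cre-negative cells, and Mmp19 moves in opposite directions with ethanol in the 2 lines.

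Untreated cells of the same line are a second control, which differs from ethanol by the vehicle and possibly by time in culture. No time is given for the untreated cells, and vehicle and time cannot be told apart here. Against it 8 of 9 tested members were higher in Cre-positive 4-OHT cells and 0 lower (39.2% of all tested genes called, 21% higher), with Mmp13 at 6.26-fold (log2 2.65, SE 0.0883, adjusted p = 7.69e-15) and Mmp3 at 2.46-fold (log2 1.30, SE 0.0434, adjusted p = 7.69e-15). Mmp10 did not pass. This comparison and that with ethanol share their 4-OHT libraries. In Cre-negative cells 3 members were higher with 4-OHT than untreated (Mmp19, Timp2 and Timp3) and 1 was lower (Mmp13), with 19.2% of all genes called, 10.1% higher and 9.14% lower. That Mmp13 call (log2 -1.03, adjusted p = 0.0113) was lost without untreated library 2 (adjusted p = 0.167), 4-OHT library 5 (adjusted p = 0.0823) or 4-OHT library 6 (adjusted p = 0.057).

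Ethanol against untreated moved several members in both lines. In Cre-positive cells 5 rose (Mmp3, Mmp13, Mmp14, Timp2 and Timp3) and 1 fell (Mmp19), with 14.9% of all genes called, 8.11% higher and 6.84% lower. The largest of these was Mmp13, 2.74-fold (log2 1.46, SE 0.0978, adjusted p = 2.66e-09). Its log2 step from ethanol to 4-OHT, which shares the ethanol libraries, was 1.19. The fall of Mmp19 (log2 -0.27, adjusted p = 0.00651) was lost without ethanol library 4 (adjusted p = 0.0851) or untreated library 8 (adjusted p = 0.0718). In Cre-negative cells 4 rose (Mmp14, Mmp19, Timp2 and Timp3) and 1 fell (Timp1), with 24.5% of all genes called, 12.5% higher and 12% lower. Here Mmp19 moved most, from 9.78 and 9.93 CPM untreated to 18.1 and 19.6 CPM with ethanol (log2 0.93, SE 0.0802, adjusted p = 1.74e-08), and it stayed at 18.5 and 17.9 CPM with 4-OHT. The fall of Timp1 (log2 -0.13, adjusted p = 0.0274) was lost without library 1, 9 or 10 (adjusted p = 0.22, 0.13 and 0.119), and the rise of Timp3 (log2 0.14, adjusted p = 0.00983) without library 2 or 9 (adjusted p = 0.057 and 0.0918).

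The difference between the ethanol effects of both lines passed for 3 of 9 tested members, where 16.3% of all genes were called, 8.32% higher and 7.98% lower. Mmp19 was lower in this sense in Cre-positive cells (log2 -1.2, SE 0.103, adjusted p = 9.32e-08). Mmp13 was higher (log2 1.23, SE 0.246, adjusted p = 0.00166), a call lost without Cre-negative untreated library 2 (log2 1.06, adjusted p = 0.0603). Mmp3 was at log2 0.20 (adjusted p = 0.0534) and passed with DESeq2 (adjusted p = 0.0471), with its size factors (adjusted p = 0.0445), with 2 other filters on low counts (adjusted p = 0.0396 and 0.0459) and without library 10 (adjusted p = 0.00949). Mmp14 was higher by log2 0.17 (adjusted p = 0.0334), a call lost without any of libraries 1, 2, 4, 7, 8, 9 and 10 (adjusted p = 0.0619, 0.119, 0.0941, 0.0784, 0.099, 0.0922 and 0.0922).

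The lines differed before any treatment. Of 9 tested members 6 were higher and 2 lower in untreated Cre-positive than untreated Cre-negative cells, where 49% of all genes were called, 24.4% higher and 24.6% lower. The median log2 difference of the tested members was 1.65, against 0.01 over all genes. Mmp2 was at 61.6 and 59.7 CPM against 4.54 and 3.01 CPM, a 16.4-fold difference (log2 4.03, SE 0.116, adjusted p = 1.46e-17). Mmp3 was 5.77-fold higher (51.0 and 51.3 CPM in the Cre-negative line, adjusted p = 2.15e-20), Mmp13 4.91-fold (adjusted p = 1.19e-10) and Mmp19 3.45-fold (adjusted p = 1.29e-14). Mmp14 was higher by log2 0.41 and Timp1 by log2 0.45, with SE 0.0378 and 0.0424 and adjusted p = 7.98e-09 and 9.79e-09. The inhibitors Timp3 and Timp2 went the other way: Timp3 was at 365.0 and 364.0 CPM against 771.8 and 764.1 CPM (log2 -1.08, SE 0.0398, adjusted p = 1.21e-15) and Timp2 at 434.1 and 445.0 CPM against 507.1 and 531.5 CPM (log2 -0.24, adjusted p = 0.000253). Mmp10, at 0.787 and 0.295 CPM against 0 and 0.323 CPM, overlapped and did not pass (log2 1.65, adjusted p = 0.0565), but it passed with no filter on low counts (adjusted p = 0.0099) and without library 8 (log2 2.13, adjusted p = 0.0254). It also passed without library 2 (adjusted p = 0.00322), where the one Cre-negative library left is at 0 counts. Adipocyte markers also differed between the lines, with a sum of 6 markers of 77.2 to 86.8 CPM in Cre-negative and 6.68 to 11.8 CPM in Cre-positive libraries, nearly all of it Fabp4 and Pparg. Of them 2 reached 1 CPM in at least 1 group, Adipoq and Plin1 stayed under 0.1 CPM in every group, and their part in the result was not tested.

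Scaled to exon length, so that genes can be compared, the order of levels is given for the untreated cells of each line and for Cre-positive cells with 4-OHT. In untreated Cre-negative cells Timp1 was highest at 159 ± 4.1 CPM per kb (SD, n = 2), followed by Timp2 (133 ± 4.4), Timp3 (94.3 ± 0.67), Mmp14 (48.2 ± 0.58), Mmp3 (28.4 ± 0.14), Mmp19 (2.79 ± 0.030), Mmp2 (1.12 ± 0.32) and Mmp13 (0.403 ± 0.057). In untreated Cre-positive cells Timp1 was highest as well (217 ± 14), followed by Mmp3 (164 ± 2.4), Timp2 (113 ± 2.0), Mmp14 (63.9 ± 0.70) and Timp3 (44.8 ± 0.083), and with ethanol Timp1 (206 ± 0.53) still lay above Mmp3 (190 ± 2.4). In Cre-positive cells with 4-OHT Mmp3 was highest at 404 ± 15 CPM per kb, followed by Timp1 (283 ± 2.6), Timp2 (158 ± 7.1), Mmp14 (77.5 ± 2.7), Timp3 (69.4 ± 0.72), Mmp2 (28.6 ± 1.9), Mmp13 (12.5 ± 0.16) and Mmp19 (11.7 ± 0.33). Mmp10 and Mmp9 were last in all of these groups, under 0.5 CPM per kb, and in untreated Cre-negative cells these 2 lay within 1 SD of each other. The other neighbours named here differed by more than 1 SD.

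Summed per length, the 7 metalloproteinases stood at 80.6 to 92.1 CPM per kb in the 6 Cre-negative libraries, 255 to 304 in the 4 Cre-positive control libraries and 548 and 521 in the 4-OHT libraries of that line. The 3 TIMPs moved less, from 366 to 460 CPM per kb in the 10 other libraries to 504 and 517. The ratio of both sums was 0.182 to 0.229 in Cre-negative libraries, 0.680 to 0.776 in Cre-positive controls, and 1.09 and 1.01 with 4-OHT in Cre-positive cells. Mmp3 made up 30.6% to 35.8% of the metalloproteinase sum in Cre-negative libraries, where Mmp14 held 56.6% to 61.7%, and 75.6% and 75.5% in Cre-positive 4-OHT libraries, where Mmp14 held 14.5%. These are sums of RNA, not of protein or activity, and exon lengths are those of GENCODE M21, which may not be the annotation of the counting.

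**Figure D3:**
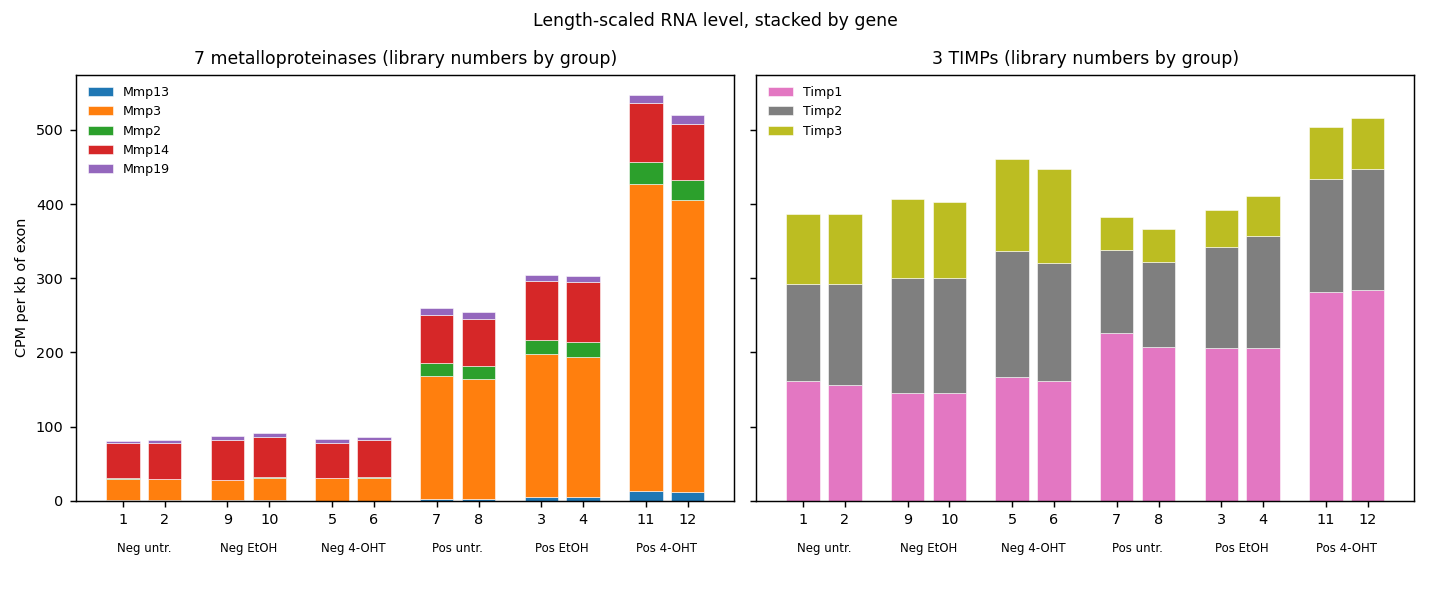
Stacked bars of CPM per kb of exon for each library, with the metalloproteinases on the left (Mmp9 and Mmp10 are too low to be drawn) and the TIMPs on the right on the same scale. Mmp3 takes most of the metalloproteinase sum in Cre-positive cells, and the sum is 548 and 521 CPM per kb in the 2 Cre-positive 4-OHT libraries.

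Mmp13, Mmp3 and Mmp10 lie in a cluster of 10 metalloproteinase genes on chromosome 9, from Mmp13 (start 7272514) to Mmp7 (end 7699585). The other 7 were near 0 in most libraries. Mmp12, for macrophage elastase, and Mmp1b, for an interstitial collagenase relative, were at 0 counts in 5 of 6 Cre-negative libraries each, with 1 count in the sixth, and held 1 to 16 and 10 to 22 counts in the Cre-positive libraries. Both were called higher in untreated Cre-positive than Cre-negative cells (adjusted p = 0.0134 and 7.8e-06). In untreated Cre-positive cells Mmp12 was at 0.275 and 0.049 CPM and Mmp1b at 0.865 and 0.639 CPM, against 0 in untreated Cre-negative cells. The lower Mmp12 value lies under the level that an observed 0 still allows. Neither gene passed for 4-OHT against ethanol in Cre-positive cells (adjusted p = 0.0535 and 0.541). Mmp1a had 0 to 6 counts. Of the 30-base stretches of Mmp1b 21.5% also occur in Mmp1a, and of those of Mmp1a 15.1% in Mmp1b, so the counts of both are uncertain. Mmp8 was at 0 counts in all 12 libraries, and Mmp7, Mmp20 and Mmp27 had at most 2 counts in any. The RefSeq windows of Mmp1a and Mmp1b held both the AP-1 and the TATA motif as well. For Mmp12, the window starting at 7347124 held the AP-1 motif only, and that starting at 7344147 held neither. Windows of Mmp7, Mmp8, Mmp20 and Mmp27 were not looked at singly.

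**Figure D4:**
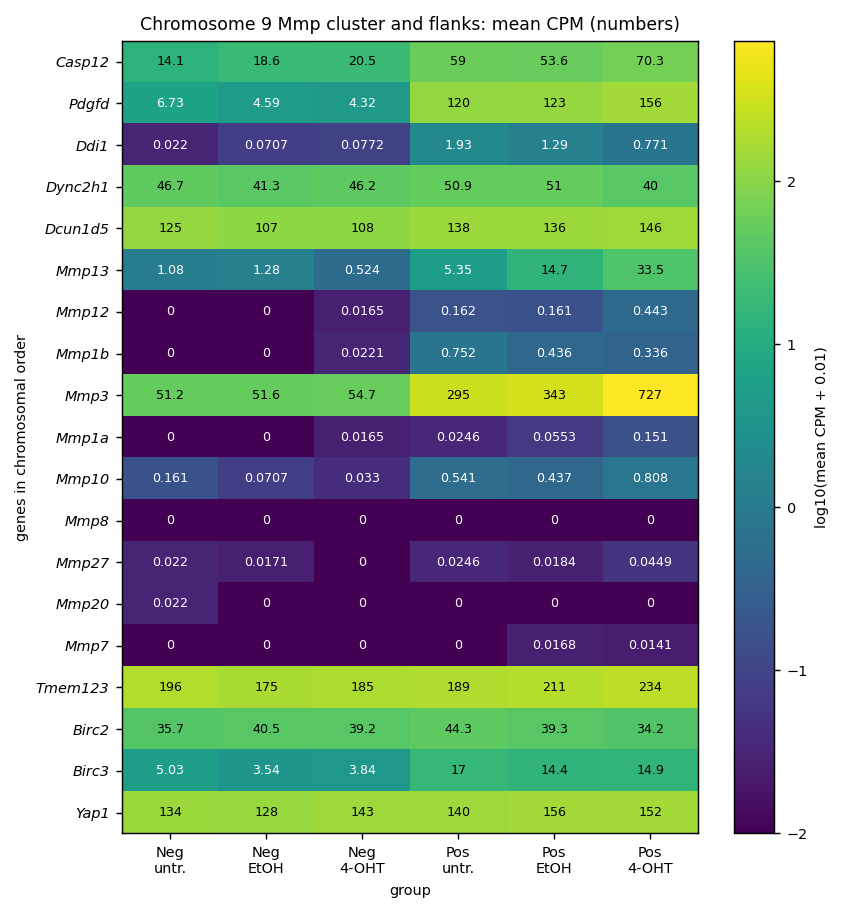
Mean CPM of 2 libraries (numbers) and its log10 (colour) for the chromosome 9 metalloproteinase genes and their nearest protein-coding neighbours, in chromosomal order, in each group. Mmp3 is at 51.2 in untreated Cre-negative, 295 in untreated Cre-positive and 727 in Cre-positive 4-OHT cells. The nearest neighbours, Dcun1d5 and Tmem123, stay between 107 and 234 in all groups. Pdgfd, Casp12, Birc3 and, at a low level, Ddi1 are higher in the Cre-positive groups.

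Genes next to the cluster, chosen for their position after the results were seen, had their own patterns. Dcun1d5, beside Mmp13, was at 106 to 147 CPM in the 12 libraries, and for 4-OHT against ethanol in Cre-positive cells it was at log2 0.11 (adjusted p = 0.0501). Tmem123, on the far side of Mmp7, was at 174 to 246 CPM and rose by log2 0.15 in that comparison (adjusted p = 0.0115). Of the other neighbours, the growth factor gene Pdgfd differed between untreated lines by log2 4.14 (adjusted p = 1.37e-20), Casp12 by 2.07 (adjusted p = 2.15e-17) and the apoptosis inhibitor gene Birc3 by 1.78 (adjusted p = 3.91e-11), all higher in Cre-positive cells, whereas Dync2h1, Tmem123 and Yap1 did not pass that test. Ddi1 was also higher in the Cre-positive groups, at 0.771 to 1.93 CPM against 0.0220 to 0.0772 CPM (group means). In Cre-positive cells Casp12 was at 53.57 and 53.74 CPM with ethanol and 71.11 and 69.45 CPM with 4-OHT. Pdgfd was at 124.1 and 121 CPM with ethanol and 158.6 and 153.3 CPM with 4-OHT. Dync2h1 was lower with 4-OHT (40.4 and 39.69 CPM against 49.81 and 52.19 CPM), as were Birc2 and Ddi1, without overlap. Birc3 and Yap1 overlapped between these groups.

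Related genes were taken from lists written with earlier results of these data known, and their counts stand beside 21.1% higher and 17.2% lower over all tested genes (median log2 0.03). Among 17 other metalloproteinase and TIMP genes, 10 were tested, and for 4-OHT against ethanol in Cre-positive cells 0 rose and 1 fell (median log2 0.15). The one that fell was Mmp11, for stromelysin 3 (log2 -0.17, SE 0.0526, adjusted p = 0.0136), with a like value in Cre-negative cells (log2 -0.20, adjusted p = 0.0175).

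Genes for activation, inhibition and clearance of these proteases moved both ways: of 16 tested, 7 rose and 4 fell in that comparison (median 0.04). The lysosomal protease genes Ctsl (log2 0.32, SE 0.0369, adjusted p = 7.16e-07) and Ctsb (log2 0.22, SE 0.034, adjusted p = 3.75e-05) rose. Plaur, the receptor of urokinase, which starts plasmin formation and thereby activates metalloproteinases, fell by 0.40 on the log2 scale (SE 0.0533, adjusted p = 4.38e-06). Plaur was at 85.3 ± 0.74 CPM with ethanol, 64.4 ± 1.7 CPM with 4-OHT and 63.6 ± 6.0 CPM untreated (SD, n = 2). Cd44, a hyaluronan receptor that docks Mmp9 and Mmp14, fell by 0.31 on the log2 scale (adjusted p = 0.000111). Set against the 4-OHT effect in Cre-negative cells, the difference passed for Ctsl, Ctsb and Plaur but not for Cd44 (log2 -0.19, adjusted p = 0.0695).

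Of 18 tested ADAM and ADAMTS genes, the related disintegrin proteases, 4 rose and 3 fell (median 0.04), shares close to those over all tested genes. The aggrecanase genes Adamts5 (log2 0.46, SE 0.0453, adjusted p = 1.06e-07) and Adamts4 (log2 0.57, SE 0.0914, adjusted p = 4.33e-05) rose, as did Adamts1 (log2 0.23, adjusted p = 9.13e-05). Adam9 fell (log2 -0.15, adjusted p = 0.003). Set against the 4-OHT effect in Cre-negative cells, the difference passed for Adamts4, Adamts1 and Adam9 but not for Adamts5 (log2 0.21, adjusted p = 0.0787). Of 18 matrix substrate genes 5 rose and 7 fell (median -0.11). The proteoglycan gene Vcan rose by log2 0.64 (adjusted p = 3.11e-09) and Spp1, for osteopontin, by log2 0.53 (adjusted p = 5.66e-10). Fn1, for fibronectin (log2 -0.60, adjusted p = 1.22e-05), and the laminin chain gene Lamc1 (log2 -0.35, adjusted p = 3.31e-05) fell. Against untreated Cre-positive cells Vcan was higher (log2 0.56, adjusted p = 1.38e-08) and Fn1 lower (log2 -0.27, adjusted p = 0.0153). Spp1 (log2 -0.07, adjusted p = 0.119) and Lamc1 (log2 0.009, adjusted p = 0.918) did not pass against untreated cells. The difference from the 4-OHT effect in Cre-negative cells passed for Spp1, Fn1 and Lamc1 but not for Vcan (log2 0.28, adjusted p = 0.298).

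Among transcriptional inducers of metalloproteinase genes 8 of 21 tested rose and 5 fell (median 0.11). The AP-1 genes went in different directions: Fosl1, at 12.5 and 11.3 CPM with 4-OHT and 20.3 and 23.6 CPM with ethanol, fell by 0.88 on the log2 scale (SE 0.0828, adjusted p = 5.17e-08). Jun fell by 0.53 (SE 0.061, adjusted p = 7.01e-07), while Jund rose by log2 0.34 (adjusted p = 0.000184) and Fos by log2 0.37 (adjusted p = 0.0267), the last 2 chosen after their values were seen. Cebpb, a transcription factor of inflammatory and stress responses, rose by log2 0.67 (SE 0.0727, adjusted p = 3.69e-07) and Stat3, which transmits signals of the interleukin 6 family, by log2 0.27 (adjusted p = 6.04e-06). The difference from the 4-OHT effect in Cre-negative cells passed for Fosl1 (log2 -0.81, adjusted p = 1.89e-05), Jun (log2 -0.48, adjusted p = 0.000265), Cebpb (log2 0.86, adjusted p = 6.11e-06) and Stat3 (log2 0.29, adjusted p = 0.000722).

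**Figure D5:**
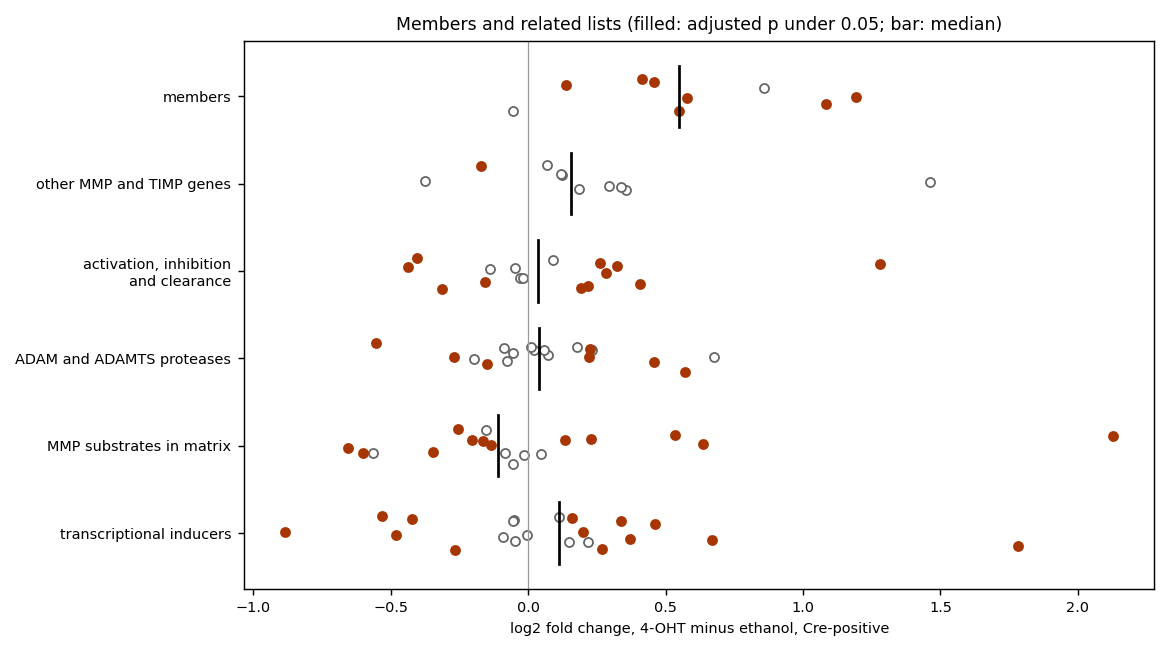
Log2 fold change for 4-OHT minus ethanol in Cre-positive cells of each tested gene in the member list and 5 related lists, filled where adjusted p is under 0.05, with a bar at the list median. The members have the highest median (0.55), and the other lists spread on both sides of 0 with medians from -0.11 to 0.15. All lists, the members included, were chosen with earlier results of these data known.

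The members with the widest range of group means were Mmp13 (5.82 on the log2 CPM scale), Mmp2 (4.80) and Mmp3 (3.83). The genes whose log2 CPM was most like theirs over the 12 libraries were Mgp, Tmsb4x and Anxa6 for Mmp13 (Pearson r = 0.994, 0.988 and 0.987), Paqr8, Cdh11 and Tsc22d1 for Mmp2 (0.998, 0.997 and 0.997) and Stk17b, Tmed7 and Snx18 for Mmp3 (0.998, 0.997 and 0.996). The 12 libraries come from only 2 lines, and the libraries of a line share their cells. Within the 6 Cre-positive libraries the values for the Mmp3 genes were 0.997, 0.983 and 0.967, and within the 6 Cre-negative libraries 0.494, 0.132 and 0.237. For Mmp13 and Mgp r was 0.979 within Cre-positive and 0.918 within Cre-negative libraries.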

How the data were processed

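The deposited table holds expected counts, which the authors gave as whole numbers, by gene symbol and library. Per the submitters' processing notes, cutadapt 1.11, STAR 2.5.2a, RSEM 1.2.30 and edgeR were used with GRCm38; the sources used here give no annotation, strand setting or filter. Libraries are numbered as in their titles. The 2 libraries of each group differed by more than sampling (chi-square per degree of freedom 2.52 to 5.03).

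Genes passing filterByExpr were tested with edgeR 4.0.16 (R 4.3.3), using TMM scaling and a quasi-likelihood fit of 6 group means over all 12 libraries. P-values of 2-sided tests were Benjamini-Hochberg adjusted across the 17609 genes, with a threshold of 0.05. Standard errors were taken from the F statistic. The code was tested on simulated data. Alternatives were DESeq2 1.42.0 or its size factors, other filters, only the compared libraries, a joint reference and leaving out each library. With 1 library left in a group, that library is assumed to vary like the other groups.

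The members, lists and tests were chosen with earlier results of these data known. All 10 members are named. From each related list at most 4 genes that passed for 4-OHT against ethanol in Cre-positive cells with the smallest p are named, and the 3 genes with the highest Pearson r (average log2 CPM at least 1) for the 3 members of widest range. Coordinates and exon lengths are from GENCODE M21, and promoters from RefSeq.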

Additional observations from a re-analysis of the deposited data

Results flagged for a closer look

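The 4-OHT effect differed between Cre-positive and Cre-negative cells, by a test of the difference itself (edgeR, adjusted over all genes), for 6 members. The log2 differences were 2.45 for Mmp13, 1.00 for Mmp3, 0.95 for Mmp2, 0.60 for Mmp19, 0.28 for Timp1 and 0.15 for Timp3, the last lost with DESeq2 (adjusted p = 0.0508) and without any 1 of libraries 3, 5, 6, 9, 10, 11 and 12. The ethanol effect differed between the lines for 3 members, by log2 1.23 for Mmp13, 0.17 for Mmp14 and -1.20 for Mmp19. The calls for Mmp13 and Mmp14 depended on single libraries, as given above. So did the call for the 4-OHT difference of Mmp2. That of Mmp19 was log2 -0.0019 with both control groups as 1 reference. Groups of 2 libraries are too small to look for a library that stands apart.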

How the results depend on the processing

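Of 9 comparisons, each with a count of members higher and lower, that for 4-OHT in Cre-positive cells went from 7 higher to between 6 and 8 against ethanol and stayed at 8 against untreated cells, with 0 lower in every setting run. With both control groups as 1 reference, the members lower with 4-OHT in Cre-negative cells went from 2 to 1, Mmp14 in Cre-positive cells turned from log2 -0.06 to log2 0.11, Mmp19 in Cre-negative cells to log2 0.41 (adjusted p = 0.000204), and the Mmp19 difference between lines to log2 -0.0019. With no filter on low counts, the members lower with ethanol in Cre-negative cells went from 1 to 0 (Timp1, adjusted p = 0.0648). The cause of these was not tested, beyond the change of reference.

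Leaving out each library gave the following counts. For 4-OHT against ethanol they were 6 to 7 higher in Cre-positive cells, and 1 higher and 0 to 2 lower in Cre-negative cells. For 4-OHT against untreated they were 8 higher in Cre-positive cells, and 3 higher and 0 to 1 lower in Cre-negative cells. For ethanol against untreated they were 5 higher and 0 to 1 lower in Cre-positive cells, and 3 to 4 higher and 0 to 1 lower in Cre-negative cells. The difference of 4-OHT effects passed for 4 to 6 members, that of ethanol effects for 0 to 3 higher and 1 lower, and the untreated lines differed in 6 to 7 higher and 2 lower. Fewer libraries also lower the power of each test. Over all 815 single-gene values under an alternative, 757 kept their side of the threshold and, where called, their direction. A further 44 lost their call and 11 gained one. The 3 that reversed changed direction with a call before or after, and changes of direction without any call are not counted as reversed. Mmp9, tested only without the filter, passed in no comparison (adjusted p from 0.109 to 1).

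No paired analysis was possible because the library numbers in the labels differ between all groups. Mmp9 and Mmp10 are limited by depth, with at most 29 counts in any library.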
